A study of Mus musculus with 6 samples.

Results

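The genes described here are 47 interferon-stimulated genes of the mouse, genes that cells switch on when interferon reaches them. They were chosen by name, with earlier results of these data known. They were followed in embryonic stem cells (ESCs) that lack Dgcr8. Of the 47 genes, 43 had a row on the array that belongs to them alone, among 22180 genes tested in all. Oas1a, Dtx3l and Gbp2 lie only on rows that list several genes, and these 3 members and Ifi44 were not analysed here. Each measured member is represented by 1 row, the one with the highest mean over the 6 arrays.

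Both groups were Dgcr8-/- ESCs. In the first, 3 samples carried a control hairpin (shctrl), and in the second, 3 samples expressed miR-302, which the labels call sh-miR-302 in one field and mimics of miR-302 in another. Both groups therefore lack Dgcr8, the partner of the Drosha nuclease without which primary miRNA transcripts are not cut, and no sample with Dgcr8 was measured. No label says how many clones the cells come from or which promoter drives the hairpins. Each group's samples are described as biologically independent in the design text, and the comparison asks what changes in these cells when miR-302 is put back. Dgcr8 itself lies on a row that lists several genes and was not analysed here.

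Interferons are secreted proteins that bind receptors on the cell surface and activate the JAK kinases. Type I interferon acts through a complex that holds STAT2 and IRF9 and binds the interferon-stimulated response element (ISRE) in promoters, where it switches on antiviral genes. ESCs are known for a weak response to interferon compared with differentiated cells. miR-302 is a family of miRNAs that is abundant in pluripotent cells and shares its seed, the bases that pair with target transcripts, with other miRNAs of those cells. The mature sequences, from RefSeq (GRCm38.p6), are shown because miR-302 is the only planned difference between the groups, and the capitals mark bases 2 to 8 of each.
mmu-miR-302b-3p: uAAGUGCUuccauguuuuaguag
mmu-miR-302d-3p: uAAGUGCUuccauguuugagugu
mmu-miR-302c-3p: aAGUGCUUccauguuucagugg
mmu-miR-302b-3p and mmu-miR-302d-3p share the seed AAGUGCU, and the listed mmu-miR-302c-3p begins 1 base later, so that its bases 2 to 8 read AGUGCUU. Which members of the family the construct expresses is not stated in the labels.

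Values are log2 expression levels, and a difference is the mean of the miR-302 arrays minus the mean of the control hairpin arrays. Levels of different genes are not on 1 scale, because each row has its own probes. The ESC marker genes were above background at 10 of 10, among them Nanog (12.85 in control cells and 12.74 with miR-302). Of the 10, 0 were lower and 1 was higher, Lin28a (7.55 and 8.79; limma, adjusted p = 0.000349). Among all genes, 9.25% were lower and 7.18% higher. In the fit without miR-302 replicate 1, Sox2 and Zfp42 were lower (limma, adjusted p = 0.00627 and 0.0119), as were 13.1% of all genes. One array, miR-302 replicate 1, differed from its own group. Its correlation over all genes was 0.99 with each of them, against 0.996 between replicates 2 and 3, and it was nearer to the control arrays (0.986 to 0.987) than they were (0.981 to 0.983). Calls of the members that change without this array are given with their values. With 3 arrays a group, precision is limited.

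With miR-302, 27 of the 43 measured interferon-stimulated genes were lower and 0 were higher (limma, adjusted p under 0.05), and 16 were not called. Among all 22180 genes, 9.25% were lower and 7.18% higher. At an unadjusted p under 0.05, 32 members were lower and 0 higher, beside 3553 lower (16.0%) and 3145 higher (14.2%) of all 22180 genes. The median difference of the 43 members was −0.64 on the log2 scale, beside 0.01 for all genes. Because the list was chosen with earlier results of these data known, these counts describe the list and do not test it. The fall was at least 2-fold in 16 members, whereas 1.15% of all genes were called with a fall of that size. It was at least 4-fold in Lgals3bp, Oas2 and Zbp1. Every miR-302 array lay below every control array in 32 of the 43 members, and this was so for 19.0% of all genes. In RNA from whole cultures, fewer cells that express a gene and less RNA of that gene per cell cannot be told apart.

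The levels of sensory receptor genes, which stem cells are not expected to use, served as background, since no detection call was used. The mean level over the 6 arrays of 1409 odorant, vomeronasal and trace amine receptor genes had a 95th percentile of 5.29, and 35 of the 43 members lay above it. All 27 members that fell are among these 35 (77.1%), and 13.9% of the 13974 genes above background were lower. Of the 2051 genes called lower in all, 1946 were above background. A member can pass this limit through its control arrays alone, so the share among the 35 is a description. For Rtp4, Ifitm1 and Sp100 the control mean was above the limit and the miR-302 mean was not. Just inside the limit were Sp100 and Rtp4, with mean levels of 5.33 and 5.36, and just outside it was Irf7 at 5.10.

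**Figure D1:**
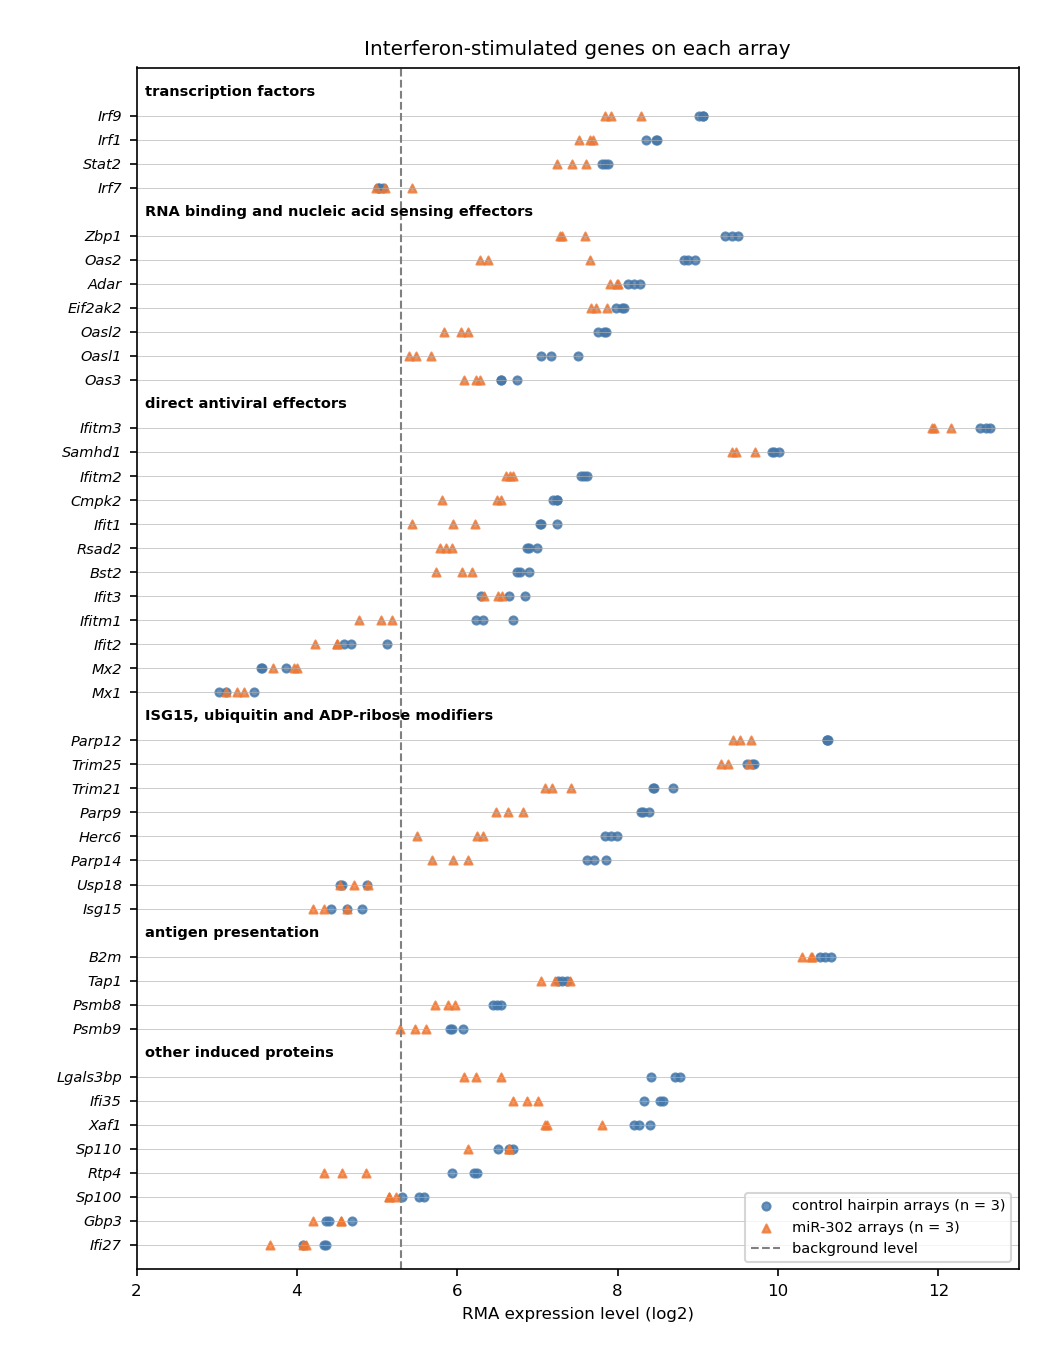
Level of each of the 43 measured interferon-stimulated genes (log2, horizontal axis) on the 3 control hairpin arrays (circles) and the 3 miR-302 arrays (triangles), grouped by role. The dashed line is the background level of 5.29. In 32 genes all triangles lie to the left of all circles, and 8 genes have a mean level at or below the line.

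Of the 4 transcription factors, Irf9, Irf1 and Stat2 fell and Irf7 was not called. Irf9, which encodes a DNA-binding subunit of the interferon-activated complex, read 9.06, 9.06 and 9.01 on the control arrays and 8.29, 7.92 and 7.84 on the miR-302 arrays. All miR-302 values were lower than all control values, and the difference was −1.03 ± 0.12 (SE; limma, adjusted p = 0.00352), a fall of 2.04-fold. Irf1 encodes a factor best known in the response to interferon gamma. It read 8.49, 8.48 and 8.36 in control cells and 7.69, 7.52 and 7.66 with miR-302, without overlap and 1.77-fold lower. Stat2, whose product joins IRF9 in the complex, changed less. Its values were 7.88, 7.84 and 7.81 in control cells and 7.60, 7.43 and 7.25 with miR-302, a difference of −0.42 ± 0.10 (SE; limma, adjusted p = 0.0337). The groups did not overlap, but the call of Stat2 was lost in each fit that left out 1 array, except the fit without miR-302 replicate 1, with limma adjusted p between 0.0839 and 0.111. Irf7, the factor that amplifies interferon production, read 5.02, 5.07 and 5.01 against 5.43, 4.99 and 5.10. It was not above background in either group.

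Because these factors act on the ISRE, promoters of the members were searched for its core in the form GAAANNGAAA on both strands. Of the 47 members, 38 had an entry in the RefSeq promoter table (GRCm38.p6; 250 bases before to 50 after the start), and 15 of these, 39.5%, held the core. The share among all 27025 genes there was 3.99%, and among the 32851 windows 3.44%. Among members in the table, the core was found in 8 of the 22 that fell and in 5 of the 12 that were not called. A second motif, TTCNNNGAA (the gamma-activated site, GAS, also read on both strands), was found in 10 of the 38 members and in 9.55% of all genes. In the Bst2 and Ifitm3 windows a GAS match overlaps an ISRE match. These matches are descriptions of letters, and no binding was measured. Stretches before the start follow for the 6 members that fell and hold the core there, and for 3 of the 4 that were not called, to let the sites be compared, with the core in capitals. They run 5′ to 3′ on the strand of the gene.
Stat2 (lower; chr10:128270256-128270305, plus strand): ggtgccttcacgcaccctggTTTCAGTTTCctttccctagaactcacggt
Oas3 (lower; chr5:120777705-120777754, minus strand): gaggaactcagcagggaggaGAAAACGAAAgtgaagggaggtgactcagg
Ifit1 (lower; chr19:34640765-34640833, plus strand): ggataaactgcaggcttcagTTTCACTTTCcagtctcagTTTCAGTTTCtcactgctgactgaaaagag
Ifitm2 (lower; chr7:140955978-140956027, minus strand): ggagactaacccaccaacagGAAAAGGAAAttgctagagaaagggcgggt
Bst2 (lower; chr8:71537567-71537622, minus strand): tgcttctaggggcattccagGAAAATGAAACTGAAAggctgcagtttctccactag
Rsad2 (lower; chr12:26456543-26456592, minus strand): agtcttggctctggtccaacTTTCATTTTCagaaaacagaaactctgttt
Ifit3 (not called; chr19:34583353-34583436, plus strand): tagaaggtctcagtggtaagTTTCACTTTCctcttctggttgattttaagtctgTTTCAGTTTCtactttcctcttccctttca
Isg15 (not called; chr4:156200855-156200916, minus strand): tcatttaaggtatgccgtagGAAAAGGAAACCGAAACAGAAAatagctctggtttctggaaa
B2m (not called; chr2:122147528-122147577, plus strand): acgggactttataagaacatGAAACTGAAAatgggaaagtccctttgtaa
Ifit1 and Ifit3 carry the same pair of sites, TTTCACTTTC and TTTCAGTTTC, which begin at positions −104 and −85 from the start in Ifit1 and −156 and −122 in Ifit3. Isg15 carries 3 overlapping sites, and its level was not above background in these cells.

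Genes grouped here as binding or sensing viral nucleic acids had the largest median difference among the groups of members, −1.72 over 7 measured. Next was the ISG15, ubiquitin and ADP-ribose group at −1.18. The IFIT genes, whose products also bind RNA, were placed with the direct antiviral effectors, so this order depends on how the roles were assigned. In this group, 5 fell and 2 were not called. Zbp1, a sensor of left-handed nucleic acid that can start cell death, read 9.50, 9.34 and 9.43 on the control arrays and 7.59, 7.28 and 7.31 with miR-302. It had the smallest adjusted p of all members (limma, adjusted p = 0.000229), with a difference of −2.03 ± 0.10 (SE), or 4.08-fold. Oas2 makes the messenger that activates RNase L. Its values were 8.88, 8.83 and 8.97 in control cells and 7.66, 6.29 and 6.38 with miR-302. The groups did not overlap, but miR-302 replicate 1 was well above the other miR-302 arrays. The difference was −2.12 ± 0.35 (SE; limma, adjusted p = 0.00928), and −2.56 without that array. Oasl2, an OAS-like gene, read 7.86, 7.83 and 7.75 in control cells and 5.83, 6.05 and 6.14 with miR-302, 3.50-fold lower (limma, adjusted p = 0.000264). Oasl1 lies beside it and read 7.50, 7.05 and 7.17 against 5.49, 5.40 and 5.67, 3.29-fold lower. The miR-302 values of Oasl1 were close to the background level of 5.29.

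The other 3 genes of this group moved by less. Oas3, which lies next to Oas2, read 6.74, 6.55 and 6.55 in control cells and 6.29, 6.08 and 6.23 with miR-302, 1.33-fold lower without overlap. Its call (limma, adjusted p = 0.0262) was lost in each fit that left out 1 array, except the fit without miR-302 replicate 1, with adjusted p between 0.0668 and 0.0877. Eif2ak2 encodes the kinase PKR, which halts translation when it meets double-stranded RNA. It read 7.98, 8.05 and 8.08 against 7.67, 7.87 and 7.73, a difference of −0.28 with a 95% interval from −0.47 to −0.09, and was not called after adjustment (limma, adjusted p = 0.0581). Adar, the RNA editing enzyme that marks the cell's own RNA, read 8.13, 8.20 and 8.28 against 7.99, 7.91 and 8.01 (interval −0.41 to −0.06; limma, adjusted p = 0.0788). In both of these genes the 3 miR-302 values lay below the 3 control values by a narrow margin.

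The direct antiviral effectors were split between 8 that fell and 4 that were not called. Among the interferon-induced transmembrane proteins, which block virus entry, all 3 members fell, by different amounts. Ifitm1 read 6.70, 6.23 and 6.32 in control cells and 5.19, 4.77 and 5.05 with miR-302, and the miR-302 values were all under the background level. Ifitm2 read 7.58, 7.54 and 7.62 against 6.66, 6.69 and 6.61, with an SD of 0.04 in each group. Ifitm3, a gene that pluripotent cells express strongly, read 12.64, 12.59 and 12.52 against 12.16, 11.92 and 11.94. The 3 falls were 2.66-fold, 1.90-fold and 1.49-fold (limma, adjusted p = 0.00282, 0.000664 and 0.00774), and in none of the 3 genes did the groups overlap. These 3 genes are neighbours on chromosome 7.

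Rsad2, which encodes viperin, and Cmpk2, a nucleotide kinase gene, lie side by side on chromosome 12. Rsad2 read 6.90, 6.87 and 6.99 in control cells and 5.86, 5.93 and 5.78 with miR-302, 2.09-fold lower with a small spread (limma, adjusted p = 0.000617). Cmpk2 read 7.24, 7.25 and 7.20 against 5.81, 6.50 and 6.55, 1.92-fold lower (limma, adjusted p = 0.0201). Here replicate 1 was the lowest of the miR-302 arrays, and the call was lost without any 1 of the control arrays, with adjusted p between 0.0678 and 0.0717. Bst2, or tetherin, holds budding virus at the cell surface. Its values were 6.89, 6.74 and 6.78 against 5.73, 6.06 and 6.18, 1.76-fold lower (limma, adjusted p = 0.00759). Samhd1, which degrades the nucleotides that retroviruses need, read 9.93, 10.01 and 9.95 against 9.71, 9.48 and 9.43. This fall of 1.34-fold did not overlap, but its call (limma, adjusted p = 0.0244) was lost in each fit that left out 1 array, except the fit without miR-302 replicate 1, with adjusted p between 0.0736 and 0.0895.

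The 3 IFIT genes, which bind foreign RNA and block its translation, lie in 1 cluster on chromosome 19 and did not share a call. Ifit1 read 7.03, 7.25 and 7.04 in control cells and 5.44, 6.22 and 5.95 with miR-302, 2.36-fold lower (limma, adjusted p = 0.00801). Ifit3 read 6.30, 6.64 and 6.85 against 6.33, 6.51 and 6.56. Its groups overlapped and the interval of its difference ran from −0.48 to 0.22, which leaves out a 2-fold fall. Ifit2 was not above background, at 4.67, 4.59 and 5.13 against 4.22, 4.50 and 4.50. The dynamin-like antiviral GTPase genes Mx1 and Mx2 had means of 3.20 and 3.66 in control cells and 3.24 and 3.89 with miR-302, and were under the background level on all arrays.

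The ISG15, ubiquitin and ADP-ribose group held 8 measured genes, of which 5 fell, each at least 2-fold, and 3 were not called. Herc6, the mouse ligase that attaches ISG15 to proteins, read 7.84, 7.99 and 7.92 in control cells and 5.50, 6.32 and 6.25 with miR-302. The fall was 3.71-fold (limma, adjusted p = 0.00285), with replicate 1 the lowest of the miR-302 arrays. Parp14 and Parp9, which encode ADP-ribosyltransferase family proteins, lie close together on chromosome 16 with Dtx3l between them. Parp14 read 7.62, 7.85 and 7.71 against 6.13, 5.69 and 5.95. Parp9 read 8.39, 8.32 and 8.29 against 6.82, 6.63 and 6.48. Their falls were 3.49-fold and 3.23-fold (limma, adjusted p = 0.000608 and 0.000349), and in both genes the lowest control value was well above the highest miR-302 value.

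Parp12, a zinc-finger member of the same family, read 10.61, 10.61 and 10.63 in control cells and 9.67, 9.44 and 9.53 with miR-302, 2.10-fold lower (limma, adjusted p = 0.000753). Trim21, a ubiquitin ligase that recognises antibody-coated virus, read 8.46, 8.69 and 8.44 against 7.10, 7.42 and 7.18, 2.46-fold lower (limma, adjusted p = 0.00126). Neither gene had overlapping groups. Trim25, the ligase known for its action on the RNA sensor RIG-I, read 9.68, 9.62 and 9.70 against 9.64, 9.29 and 9.38. It was not called (interval −0.47 to 0.01; limma, adjusted p = 0.189). Leaving out miR-302 replicate 1, whose value lay among the controls, made it a call (limma, adjusted p = 0.0190). The modifier Isg15 and its protease Usp18 are commonly used as readouts of interferon. Isg15 read 4.62, 4.43 and 4.81 against 4.20, 4.62 and 4.34, and Usp18 4.87, 4.54 and 4.56 against 4.54, 4.89 and 4.71. Both lay under the background level on all 6 arrays, and neither was called.

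Of 4 genes of antigen presentation on class I molecules, the immunoproteasome subunit genes Psmb8 and Psmb9 fell. Psmb8 read 6.50, 6.54 and 6.45 in control cells and 5.72, 5.88 and 5.97 with miR-302, 1.56-fold lower (limma, adjusted p = 0.00480). Psmb9 read 5.94, 6.07 and 5.91 against 5.61, 5.29 and 5.47, 1.43-fold lower (limma, adjusted p = 0.0172). The call of Psmb9 was lost without any 1 of the control arrays or without miR-302 replicate 3, with adjusted p between 0.0530 and 0.0681. Tap1, a subunit of the peptide transporter, lies between these 2 genes on chromosome 17 and overlapped between groups, at 7.37, 7.26 and 7.31 against 7.05, 7.22 and 7.41. The interval of its difference was −0.33 to 0.16. B2m, the light chain of class I molecules, read 10.59, 10.66 and 10.52 against 10.30, 10.41 and 10.42. Its difference of −0.21 (interval −0.39 to −0.04) was not called (limma, adjusted p = 0.106). With an intensity trend and a robust prior, or when dimmer genes than the median were not tested, B2m was called lower (adjusted p = 0.0282 and 0.0378).

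Of the remaining 8 measured members, 4 fell and 4 were not called. Lgals3bp, which encodes a secreted galectin-binding glycoprotein, had on the row used the largest fall of all members and the 11th largest of the 22180 genes. It read 8.78, 8.72 and 8.42 in control cells and 6.24, 6.54 and 6.08 with miR-302, a difference of −2.35 ± 0.15 (SE; limma, adjusted p = 0.000427), or 5.11-fold. A second, dimmer row of Lgals3bp had a difference of −0.67. Ifi35, a gene for a leucine zipper protein, read 8.53, 8.57 and 8.33 against 7.01, 6.87 and 6.70, 3.07-fold lower (limma, adjusted p = 0.000523). Rtp4, a chaperone gene first described for its action on membrane receptors, read 6.25, 6.21 and 5.93 against 4.56, 4.34 and 4.86. All of its miR-302 values were under the background level, and the measured fall was 2.91-fold (limma, adjusted p = 0.00190). Xaf1, an antagonist of the apoptosis inhibitor XIAP, read 8.21, 8.40 and 8.27 against 7.81, 7.09 and 7.12, 1.94-fold lower (limma, adjusted p = 0.0200). Replicate 1 was again the highest miR-302 array, and the call was lost in each other fit that left out 1 array, with adjusted p between 0.0621 and 0.0755. The nuclear body genes Sp100 and Sp110, Gbp3 (a guanylate-binding protein gene) and Ifi27 were not called. Sp100 read 5.52, 5.58 and 5.31 against 5.15, 5.24 and 5.15, with no overlap (limma, adjusted p = 0.0770), and Sp110 overlapped at 6.64, 6.69 and 6.51 against 6.64, 6.64 and 6.14. Gbp3 and Ifi27 were under the background level, with means of 4.48 and 4.26 in control cells and 4.43 and 3.95 with miR-302.

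**Figure D2:**
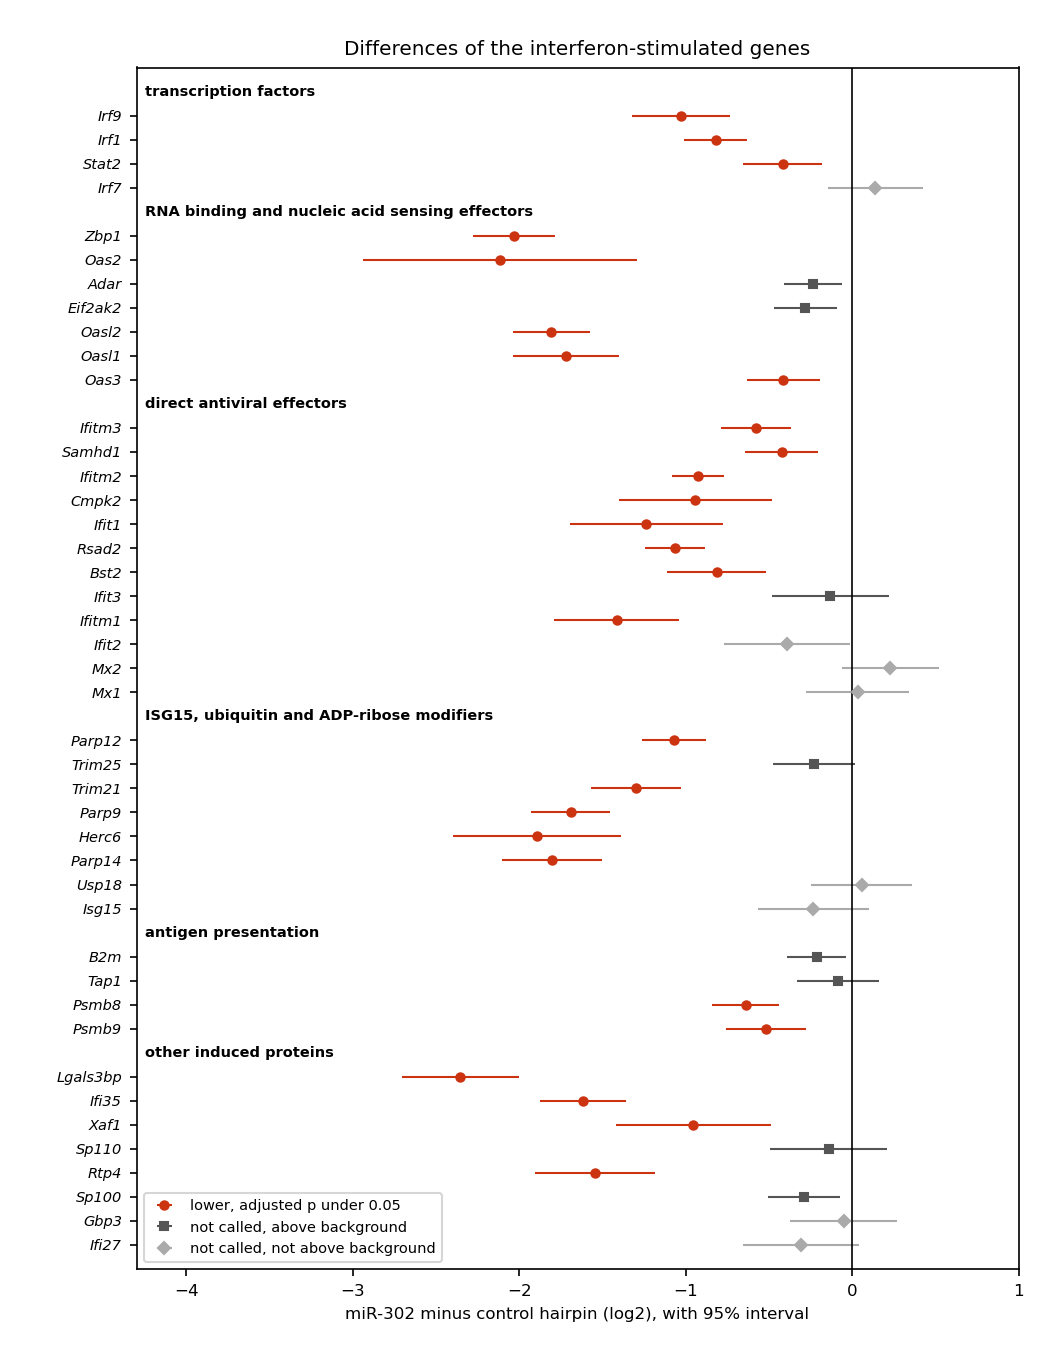
Difference of each measured interferon-stimulated gene between miR-302 and control hairpin arrays (log2, horizontal axis), with limma's 95% interval as bars. The 27 genes called lower (circles) range from −2.35 for Lgals3bp to −0.41 for Oas3, and the 16 genes not called (squares above background, diamonds not above it) lie between −0.39 and 0.23.

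The 8 members that were not above background (Irf7, Ifit2, Mx1, Mx2, Isg15, Usp18, Gbp3 and Ifi27) had a median difference of −0.01, and none was called (limma), 1 of them being lower at an unadjusted p under 0.05. The 8 members above background that were not called (Eif2ak2, Adar, Ifit3, Trim25, B2m, Tap1, Sp100 and Sp110) had differences below 0, and the 95% interval of each of these 8 left out a 2-fold fall. The intervals of the 8 members not above background did so too. Near background a fall can be understated, so there, and for Sp100 (control mean 5.47), such an interval cannot exclude a larger fall. Among the 35 members above background the control level and the difference were not closely related across genes (Pearson r = −0.06, Spearman rho = −0.17), and genes are not independent replicates.

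**Figure D3:**
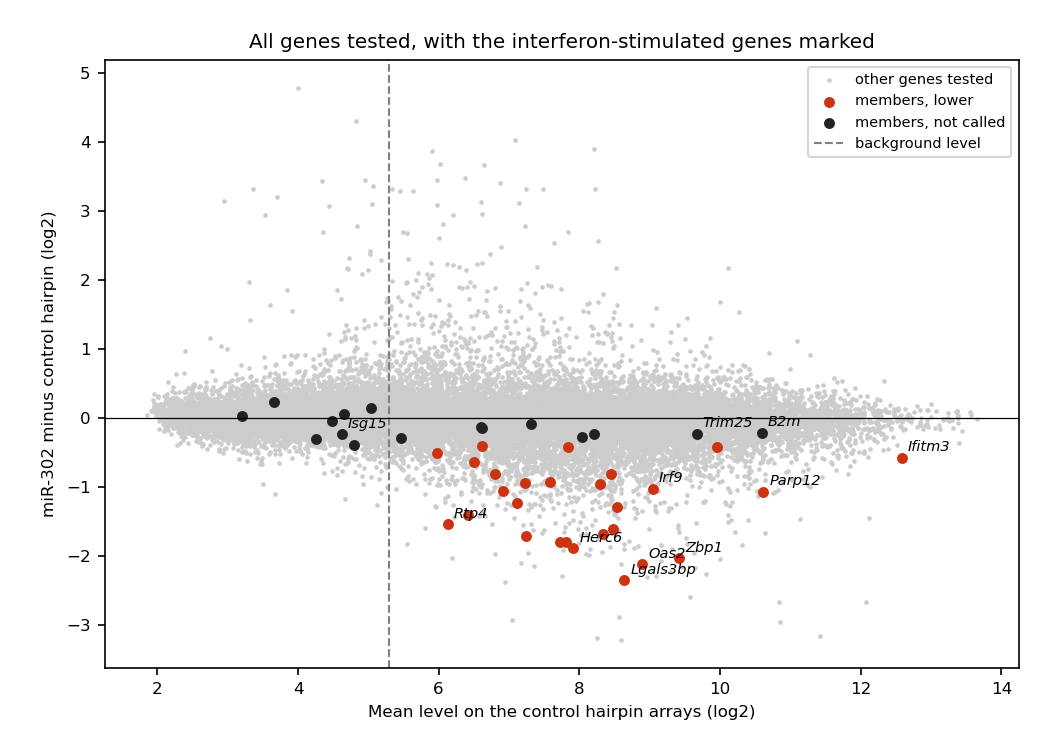
Difference between miR-302 and control hairpin (log2, vertical axis) against the mean level on the control arrays (log2, horizontal axis) for all 22180 genes in grey, with the 27 members called lower in red and the 16 not called in black. The dashed line is the background level of 5.29, and the lowest member is Lgals3bp at −2.35.

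Leaving out 1 array at a time gave 21 to 28 of the 43 members lower and 0 higher, and 21 were called in all 6 of these fits, as were 4.08% of all genes as lower. In the same fits, the share of all genes called lower ran from 4.70% to 13.1%, and it was highest without miR-302 replicate 1, where 28 members, or 65.1%, were lower. Of the 27 members that fell, this replicate was above both other miR-302 arrays in 15, below both in 7, and between or level with them in 5. It was 1.33 higher than the mean of the other 2 in Oas2 and 0.71 higher in Xaf1. In Herc6, Cmpk2 and Ifit1 it was lower than that mean, by log2 differences of −0.79, −0.72 and −0.65. Of the median differences of the members from the control mean, that of replicate 1 was −0.60, beside −0.68 and −0.62 in replicates 2 and 3.

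**Figure D4:**
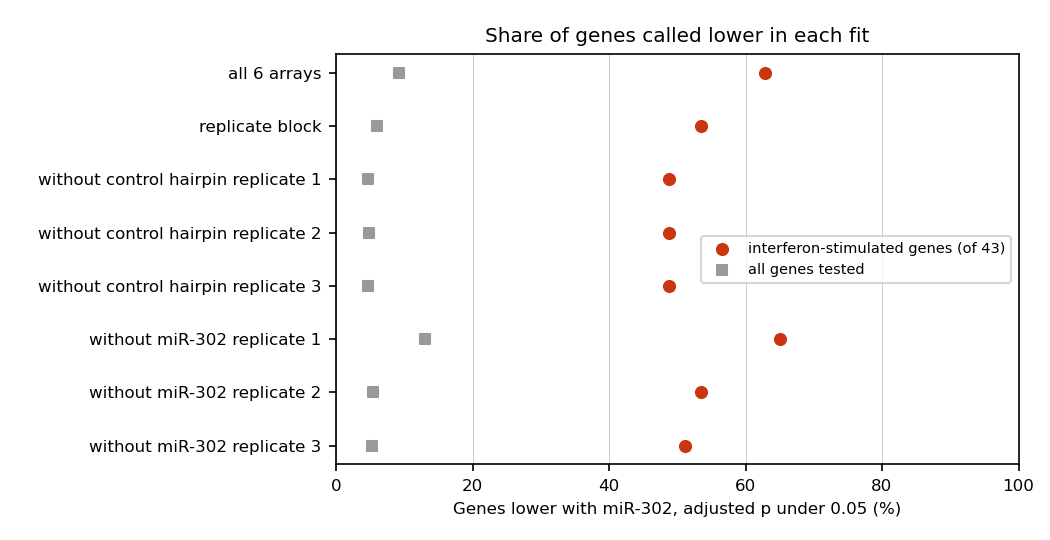
Share of genes called lower with miR-302 (percent, horizontal axis; limma, adjusted p under 0.05) with all 6 arrays, with the replicate number as a block, and without each array in turn (vertical axis). Circles are the 43 interferon-stimulated genes, from 48.8% to 65.1%, and squares are all genes tested, from 4.70% to 13.1%.

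The other genes of the pathway were taken from a list of 50, of which 44 were measured. Of these, 14 were lower (31.8%), 2 higher (4.55%) and 28 not called (limma), with a median difference of −0.23. Among all 22180 genes, 9.25% were lower and 7.18% higher, with a median of 0.01. Without miR-302 replicate 1, 20 were lower and 2 higher, beside 13.1% and 11.2% of all genes. Without any 1 of the other arrays, 8 to 10 were lower and 0 higher, with 8 lower without control hairpin replicate 3, 9 without control hairpin replicate 1 or 2, and 10 without miR-302 replicate 2 or 3. In those fits, 4.70% to 5.48% of all genes were lower and 3.09% to 3.88% higher. None of the 9 interferon genes measured was called, and none had an unadjusted p under 0.05. Of these 9, 4 were above background and 5 were not. The highest levels were those of Ifna4 (means of 7.96 in control cells and 8.09 with miR-302), Ifna1 (7.74 and 7.77) and Ifnl2 (7.68 and 7.81). Ifnb1, which encodes interferon beta, was under the background level in both groups (3.21 ± 0.06 and 3.09 ± 0.11, SD, n = 3).

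Among 9 genes of receptors and their kinases, 4 fell. Ifnar2, a chain of the type I interferon receptor, read 9.54, 9.57 and 9.63 in control cells and 8.96, 8.50 and 8.57 with miR-302, 1.87-fold lower (limma, adjusted p = 0.00580). Its partner Ifnar1 read 9.62, 9.65 and 9.64 against 9.62, 9.65 and 9.64. Ifngr1 and Ifnlr1, chains of the gamma and lambda receptors, fell by 1.56-fold and 1.88-fold, and the kinase gene Jak2 by 1.26-fold. The call of Jak2 (limma, adjusted p = 0.0451) was lost without any 1 control array or without miR-302 replicate 3, with adjusted p between 0.111 and 0.136. Jak1 and Tyk2, the kinases of the type I receptor, were not called, with differences of −0.10 and 0.05.

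Of 4 transducers measured, Irf2, which encodes a factor related to IRF1 that binds the same sites, fell. It read 8.33, 8.03 and 8.18 in control cells and 6.35, 7.12 and 7.10 with miR-302, 2.50-fold lower (limma, adjusted p = 0.00900). Irf3, Stat3 and Irf8 were not called. Among 10 sensors and adaptors, 4 fell. Cgas, the sensor of cytosolic DNA, fell by 1.64-fold, Tlr3 by 2.29-fold, Ifih1, which encodes the RNA sensor MDA5, by 1.38-fold and Dhx58 by 1.31-fold. The calls of Tlr3, Ifih1 and Dhx58 were each lost in 3 to 5 of the fits without 1 array, with adjusted p of up to 0.0987 (Tlr3, without control hairpin replicate 1), 0.0710 (Ifih1, without miR-302 replicate 3) and 0.0856 (Dhx58, without control hairpin replicate 2). Ddx58, which encodes RIG-I, read 9.30, 9.39 and 9.41 against 9.35, 9.44 and 9.58 and was not called. The adaptor genes Mavs and Sting1 were not called (limma, adjusted p = 0.153 and 0.0625), but both were lower without miR-302 replicate 1 (adjusted p = 0.00386 and 0.0130).

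Of 7 regulators, 1 was lower and 2 were higher, beside 9.25% and 7.18% of all genes. Socs1, a feedback inhibitor of JAK kinases, fell by 1.44-fold, and Ptpn11 and Trim24 were higher by 1.46-fold and 1.27-fold. Ptpn6 and Socs3 were not called, but both were lower without miR-302 replicate 1 (limma, adjusted p = 0.00412 and 0.0389), as were 13.1% of all genes. The call of Socs1 was lost without any 1 control array (adjusted p between 0.0542 and 0.0712), and those of Ptpn11 and Trim24 in each fit that left out 1 array, except the fit without miR-302 replicate 1 (between 0.103 and 0.137). Of 5 further genes of class I presentation, 4 fell. Psme1, a subunit of the proteasome activator, read 9.67, 9.59 and 9.55 against 8.71, 8.60 and 8.54, 1.98-fold lower (limma, adjusted p = 0.000868). Tap2, Tapbp and H2-K1 were lower by 1.84-fold, 1.53-fold and 1.42-fold. The mean of Tap2 over the 6 arrays was not above background, but its control values were, at 5.54, 5.57 and 5.51. Its miR-302 values were 4.95, 4.56 and 4.46. The call of H2-K1 was lost in each fit that left out 1 array, except the fit without miR-302 replicate 1. In the fits that lost it, limma adjusted p was between 0.0668 and 0.128. Psme2 was not called (limma, adjusted p = 0.0722), but was lower without miR-302 replicate 1 (adjusted p = 0.0192).

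**Figure D5:**
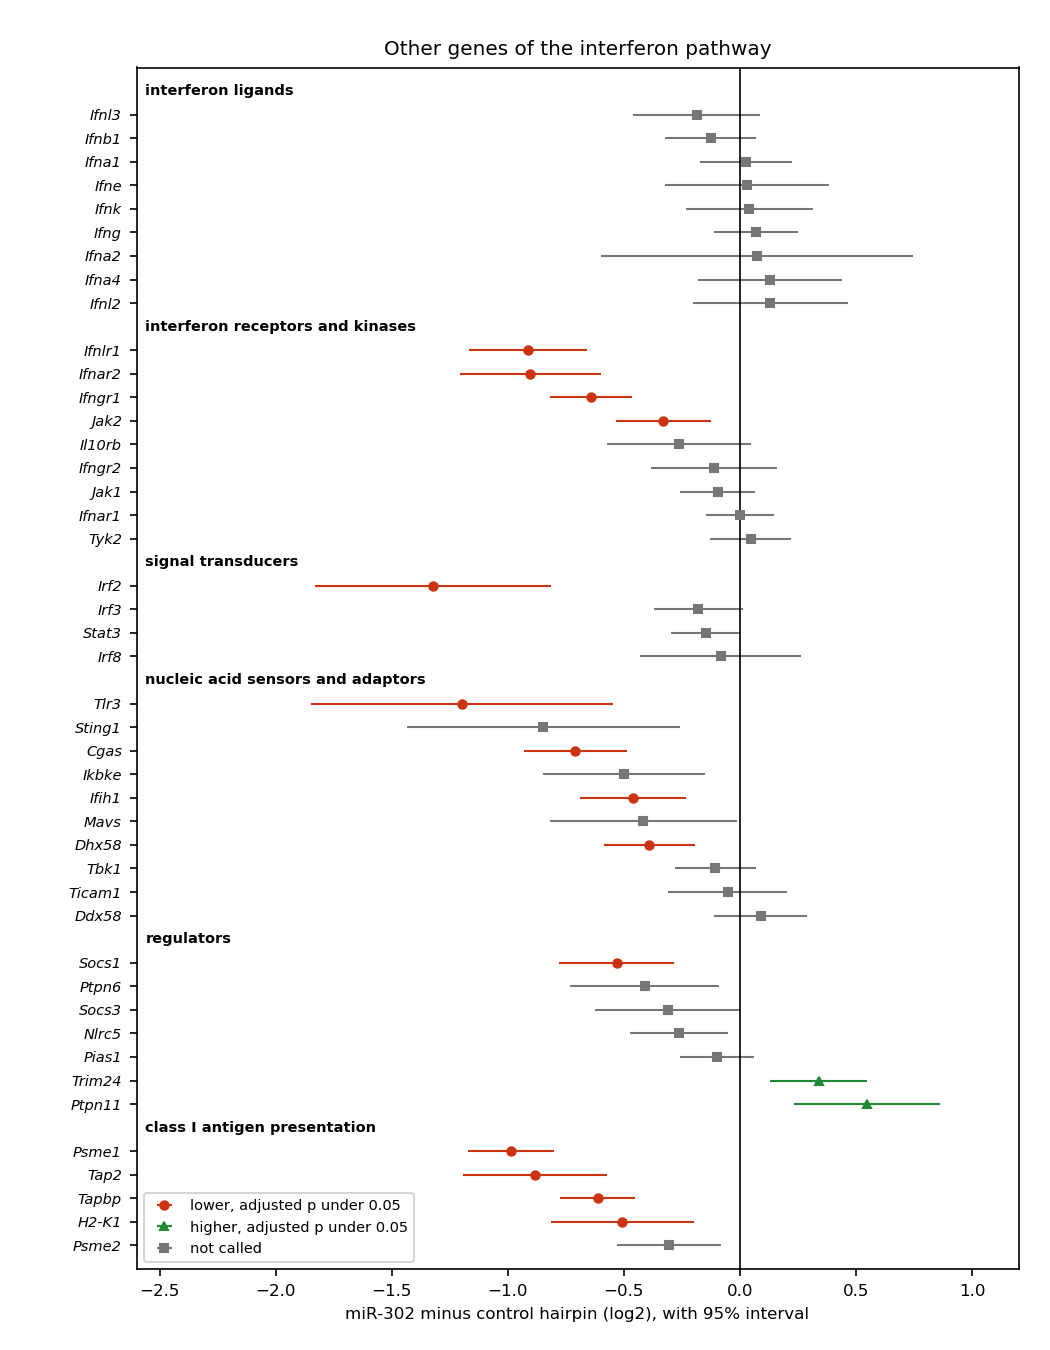
Difference between miR-302 and control hairpin (log2, horizontal axis) for the 44 measured genes of the interferon pathway outside the 47 members, grouped by role, with limma's 95% interval. Circles are the 14 genes called lower, triangles the 2 called higher and squares the 28 not called, and none of the 9 interferon genes is called.

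Markers of other cell types were read in the same comparison, in which 9.25% of all genes were lower and 7.18% higher. Of 10 trophectoderm markers 8 were higher. The summed linear signal of the 10 (2 to the power of each level) was 1866 to 1979 on the control arrays and 4635 to 10390 on the miR-302 arrays, lowest in replicate 1. The largest terms with miR-302 were Krt8 (10.43, 12.07 and 12.11 on replicates 1, 2 and 3) and Krt18 (9.86, 11.82 and 11.68). Gata3 (7.78, 7.45 and 7.68) and Tead4 (9.84, 9.48 and 9.63) were highest in replicate 1, and each other marker of this list was lowest in it. All 10 trophectoderm markers were higher without miR-302 replicate 1, beside 11.2% of all genes. Of 10 primitive endoderm markers 5 were higher and 2 lower (Gata4 and Cubn), with sums of 735 to 771 and 1416 to 1547. The largest terms with miR-302 were Lamb1 and Lama1, with means of 9.61 and 7.84. Pdgfra, called higher, and Gata6, Sox17 and Sox7, not called, had mean levels under background. In each fit that left out 1 array other than miR-302 replicate 1, 3 primitive endoderm markers were higher and 1 lower. Of all genes, 3.09% to 3.88% were higher and 4.70% to 5.48% lower in those fits. Fibroblast markers, as feeder cells would carry, had 1 of 10 lower (Thy1) and none higher (limma), with sums of 560.0 to 594 and 606 to 675. The call of Thy1 held in the fit without miR-302 replicate 1, where Lum was also lower and Col1a1 higher, and was lost without any other array (adjusted p between 0.0591 and 0.110). Without control hairpin replicate 3, Dcn was higher (adjusted p = 0.0468). Of the 10, Dcn, Lum and Postn were under the background level. None of 9 leukocyte markers measured was called (limma), with sums of 1380 to 1537 on the control arrays and 2085, 1319 and 1338 on miR-302 replicates 1, 2 and 3. Without replicate 1, Cd3e was lower and Csf1r higher (limma, adjusted p = 0.000296 and 0.00316). Of these, 4 were above background, and 5 were not (Ptprc, which marks all leukocytes, Adgre1, Cd14, Lyz2 and Itgam). Cd3e, a T cell receptor component gene, read 8.52, 8.28 and 8.29 against 8.02, 6.60 and 6.69 (limma, adjusted p = 0.0600). The part of these cell types in the fall of the interferon-stimulated genes was not tested.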

How the data were processed

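Biotin-labelled total RNA of 6 samples was measured on arrays, per the labels. The submitters' processing notes name RMA, and the values the authors deposited were taken as log2, the scale of RMA, since no source states the base. No source used here names the software or genome build. RMA gives all arrays like distributions, which hides any change shared by every gene. Array medians were 5.60 to 5.62, and 0 columns were left without a sample.

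Of 33649 rows, the platform annotation gave 1 gene for 23521, several for 1814 and none for 8314. Single-gene rows were kept, and the row with the highest mean stood for each of 22180 genes.

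Differences were tested two-sided by lmFit and eBayes of limma 3.58.1 (R 4.3.3), with Benjamini-Hochberg adjustment over all 22180 genes and a threshold of 0.05. The fit was tested on simulated data. Groups came from the sample titles. Same-numbered arrays of the 2 groups did not deviate together (correlations of 0.0085 to 0.019), so no block was used.

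The members, roles and lists were chosen with earlier results of these data known, and no list was tested as a set. The rule for named genes took members called in either direction, the 6 with the highest level and the smallest p of each role. It also took pathway genes called and at most 3 of highest level in each pathway or marker list. Not every list has 3 such genes named. The other members, and Ifnb1, Tyk2, Irf8, Sting1, Ptpn6, Socs3 and the markers under background, were named after their values were seen. So were the markers Lin28a, Sox2, Zfp42, Thy1, Csf1r, Krt18, Gata3 and Cubn. Plots used matplotlib 3.10.9 (Python 3.11.15).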

Additional observations from a re-analysis of the deposited data

How the results depend on the processing

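Alternatives tried were a replicate block, fits that leave out 1 array, an intensity trend with robust prior, median centring, repeated quantile normalization, the mean of a gene's rows, array weights, 2 filters on dim rows and a 1.5-fold threshold. Under those of the 15 alternatives that keep all 43 members, 21 to 30 members were lower and 0 higher, beside 4.17% to 13.5% of all genes lower. With dim genes left out, 27 of 31 members (22.4% of genes) or 30 of 35 (18.1%) were lower. With the replicate number as a block (a hint only: control hairpin replicate 3 correlated best with miR-302 replicate 2) 23 members were lower, and the calls of Stat2, Samhd1, Psmb9 and Xaf1 were lost. With at least 1.5-fold, 22 members were lower. Of 432 comparisons of 29 named members, 391 kept their side of the threshold, 37 lost and 4 gained a call, and 0 reversed. The members' median ran from −0.70 (without miR-302 replicate 3) to −0.62, and was −0.94 when testing was limited to the brighter part of the genes or to those above background, since members with low levels are then left out. Members above background numbered 30 at the 99th percentile of the receptor genes, 31 at the median of all genes and 34 with the mean of rows. Pathway genes called lower ranged from 8 to 20 and higher from 0 to 2 when 1 array was left out, beside 4.70% to 13.1% and 3.09% to 11.2% of all genes. With at least 1.5-fold, 9 were lower and 0 higher, beside 4.17% and 2.87% of all genes. With the replicate number as a block 11 were lower and 0 higher, beside 5.99% and 4.35% of all genes. With median centring 1 was higher, beside 6.48% of all genes. Low signal limits members near background, where a fall can be understated.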

Other observations

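Of the 43 measured members, 4 had further single-gene rows that the comparisons did not use. The second row of Lgals3bp read 5.92, 6.05 and 6.33 on the control arrays and 5.39, 5.38 and 5.52 with miR-302, a difference of −0.67 without overlap, beside −2.35 on the row with the higher level. The second row of Ifi35 was under the background level of 5.29 on all arrays, with means of 5.07 and 4.94. Sp110, not called on its main row (−0.14), read 6.46, 6.87 and 6.62 against 6.46, 6.03 and 5.56 on a second row of nearly the same level, a difference of −0.63 in which the groups touch at 6.46. The third row of Sp110 and the other 3 rows of Sp100 had means under the background level in both groups.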
